A study of Mus musculus with 20 samples.

Results

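Bcl11b binding in mouse T cells that lack Foxp3 was set against Foxp3 binding in normal regulatory T (Treg) cells. The members are the 2194 genomic regions listed for Bcl11b in KIKO cells, out of 22081 distinct regions in the series. They comprise 2127 regions listed as common to wild-type (WT) Treg and KIKO cells and 67 listed as KIKO-specific. Each was looked up by identical position in the 14250 regions listed for Foxp3 in WT Treg cells, of which 4738 were shared with Bcl11b and 9512 were listed for Foxp3 alone. Both sets come from chromatin immunoprecipitation followed by sequencing (ChIP-seq).

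All mice were C57BL/6, and cells were sorted from draining lymph nodes and spleen. KIKO cells were CD4+GFP+ cells of the genotype Foxp3-GFPKO, labelled as Treg cells devoid of Foxp3 (Tfn), with 2 Bcl11b libraries and 1 input library. WT Treg cells were CD4+YFP+ cells of the genotype Foxp3-IRES-YFP-Cre, with 3 Bcl11b, 2 Foxp3 and 3 input libraries. Bcl11b-KO Treg cells were CD4+YFP+ cells that carry Bcl11b f/f alleles beside the same Foxp3-IRES-YFP-Cre allele, with 2 Foxp3 and 2 input libraries, so that Cre is driven from Foxp3 in both the WT and the Bcl11b-KO Treg cells. Cells labelled Tn gave 3 Bcl11b and 2 input libraries. The labels give Tn cells the same sort markers as WT Treg cells and do not expand the name. They do not say that replicates came from separate animals, nor how many animals were pooled.

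Foxp3 is a forkhead transcription factor that defines the Treg lineage and is needed for its suppressive function. Bcl11b is a zinc-finger transcription factor needed for commitment to the T lineage in the thymus, and mature T cells, Treg cells included, keep expressing it. Cells that switch on a disrupted Foxp3 allele, such as KIKO cells, resemble Treg cells in part but do not make the Foxp3 protein. The comparison asks which sites Bcl11b holds in such cells, and which of them are Foxp3 sites in WT Treg cells.

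The lists hold positions in mm10 and no score, count or replicate value. The read depth behind a call is therefore unknown, and the Wilson 95% intervals given in brackets after a share cover counting error only. The rule that made a region common or specific is not given in the sources used here. Widths bear on it. Each set has a modal width, 252 bp for KIKO Bcl11b, 198 bp for Treg Bcl11b, 226 bp for Tn Bcl11b, 276 bp for Foxp3 in Bcl11b-KO Treg and 220 bp for WT Foxp3. No KIKO-specific region was narrower than 252 bp, and 63 of the 67 had exactly that width. Yet 597 (27.2%) of the 2194 members were narrower than 252 bp, all of them in the common list, and 538 had the modal width of Treg Bcl11b. Whether those were called in the KIKO libraries cannot be read from positions. Below, a region is called kept where it is listed as common with KIKO and lost where it is listed as specific to WT Treg in that comparison.

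The promoter stretches of 7 genes inside member regions are printed here because they show the letters that some members at start sites carry. Each runs 5′ to 3′ toward the annotated start, ends at or before it, and is RefSeq sequence of GRCm38.p6, which shares its coordinates with mm10. Capitals mark matches on either strand to any of 10 motifs that were searched. The first 5 belong to kept regions shared with Foxp3, Ankrd49 to a KIKO-specific region in the Foxp3 set, and Tmem170 to a KIKO-specific region outside it. No stretch comes from a member listed for Bcl11b only, or from a kept member listed for Foxp3 only or not listed in the Foxp3 comparison.
Haspin (region assigned to Itgae), chr11:73138295-73138509, minus strand: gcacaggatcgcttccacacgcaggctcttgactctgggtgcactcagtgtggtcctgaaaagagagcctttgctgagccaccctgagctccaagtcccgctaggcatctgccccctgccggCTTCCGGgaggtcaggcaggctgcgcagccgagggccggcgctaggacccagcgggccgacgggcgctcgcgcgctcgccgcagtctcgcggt
Nr4a1, chr15:101266596-101266845, plus strand: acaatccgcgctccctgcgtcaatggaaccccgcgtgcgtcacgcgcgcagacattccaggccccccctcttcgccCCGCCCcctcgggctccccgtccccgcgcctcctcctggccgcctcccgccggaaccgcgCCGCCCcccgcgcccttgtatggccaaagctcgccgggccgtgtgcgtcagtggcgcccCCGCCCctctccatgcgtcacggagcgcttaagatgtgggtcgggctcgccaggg
Stat5a, chr11:100860291-100860483, plus strand: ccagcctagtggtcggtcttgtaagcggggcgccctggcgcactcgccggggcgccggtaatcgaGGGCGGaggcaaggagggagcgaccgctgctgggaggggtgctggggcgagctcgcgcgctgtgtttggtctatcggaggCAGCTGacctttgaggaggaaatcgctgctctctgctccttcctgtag
Itga4, chr2:79255204-79255425, plus strand: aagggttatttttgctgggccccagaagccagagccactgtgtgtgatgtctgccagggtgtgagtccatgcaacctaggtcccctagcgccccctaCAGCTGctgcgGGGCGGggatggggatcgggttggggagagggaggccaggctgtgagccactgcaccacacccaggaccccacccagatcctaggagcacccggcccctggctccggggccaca
Runx3, chr4:135120395-135120510, plus strand: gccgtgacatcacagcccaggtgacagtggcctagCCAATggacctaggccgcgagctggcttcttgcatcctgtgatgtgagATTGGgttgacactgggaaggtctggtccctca
Ankrd49 (region assigned to Mre11a), chr9:14784711-14784823, minus strand: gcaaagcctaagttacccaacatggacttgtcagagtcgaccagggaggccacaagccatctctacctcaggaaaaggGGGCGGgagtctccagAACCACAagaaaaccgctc
Tmem170, chr8:111876728-111876925, minus strand: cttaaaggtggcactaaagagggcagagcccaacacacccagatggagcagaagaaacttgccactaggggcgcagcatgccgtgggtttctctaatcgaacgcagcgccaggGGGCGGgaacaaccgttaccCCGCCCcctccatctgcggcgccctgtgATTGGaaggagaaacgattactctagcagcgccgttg
In these stretches the Haspin capitals are an ETS motif (CCGGAAG), those of Nr4a1 are 3 GC boxes (GGGCGG), and those of Runx3 are 2 NF-Y motifs (CCAAT). Stat5a and Itga4 each hold 1 GC box and 1 E-box (CAGCTG). Ankrd49 holds 1 GC box and 1 Runx motif (TGTGGTT), and Tmem170 holds 2 GC boxes and 1 NF-Y motif. None of the 7 held the forkhead motif searched (TGTTTAC).

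Most Bcl11b regions of KIKO cells were Foxp3 regions in WT Treg cells. Of the 2194, 1414 (64.4%, 62.4 to 66.4) were in the WT Foxp3 set, which is 9.92% of that set. As background, the Foxp3 set takes 64.5% of all regions of the series and 56.8% of the 9324 regions listed for Bcl11b in any cells, so the KIKO share is close to the first and above the second. The 1414 were made up of 1304 regions shared by Bcl11b and Foxp3, 108 kept regions listed for Foxp3 only, and 2 KIKO-specific regions listed for Foxp3 only. The other 780 comprised 488 regions listed for Bcl11b only and 292 regions that the Foxp3 comparison did not list at all, 227 kept and 65 KIKO-specific. The kept list names WT Treg Bcl11b too, so at the 108 and the 227 the lists conflict on Bcl11b in WT Treg cells. They also conflict at many regions outside the members. Of the 4738 regions shared by Bcl11b and Foxp3 in WT Treg cells, 1304 were kept and 1442 lost, and the others were classed as neither. Of the 3519 lost regions, 58 were listed for Foxp3 only and 10 were not listed. Over the 1902 members that the Foxp3 comparison did list, the share was 74.3%. The Foxp3 share thus depends on how unlisted regions are counted.

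**Figure D1:**
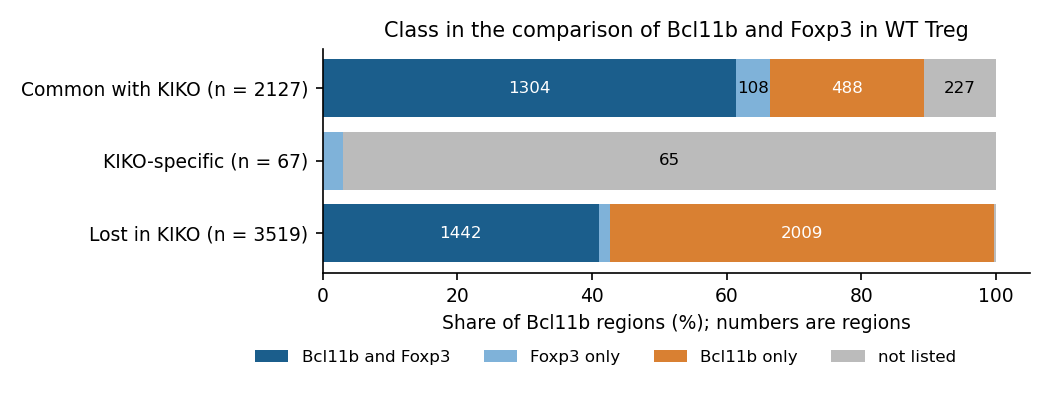
Share (%) of regions in each class of the Bcl11b and Foxp3 comparison in WT Treg, for regions common with KIKO, KIKO-specific regions and regions lost in KIKO, with region numbers in the bars. Regions shared by Bcl11b and Foxp3 make up 1304 of 2127 kept regions, while 65 of 67 KIKO-specific regions are not listed.

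The Foxp3 share of the members differed by width. It was 28.8% (172 of 597) under 252 bp, 9.77% (26 of 266) at exactly 252 bp and 91.4% (1216 of 1331) above. Median width was 320 bp for regions shared by both factors, 392 bp for the 110 listed for Foxp3 only, 198 bp for those listed for Bcl11b only and 252 bp for those not listed. Of the 488 Bcl11b-only members, 417 had exactly the 198 bp of Treg Bcl11b, and of the 227 kept but unlisted members, 171 had exactly the 252 bp of KIKO Bcl11b. Widths above 276 bp were found for 1083 of the 1414 members in the Foxp3 set (76.6%) and 87 of the 780 others (11.2%), beside 28.4% of all regions. How regions were built is not stated, so width may not be independent of the class, and these values are given without a test.

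**Figure D2:**
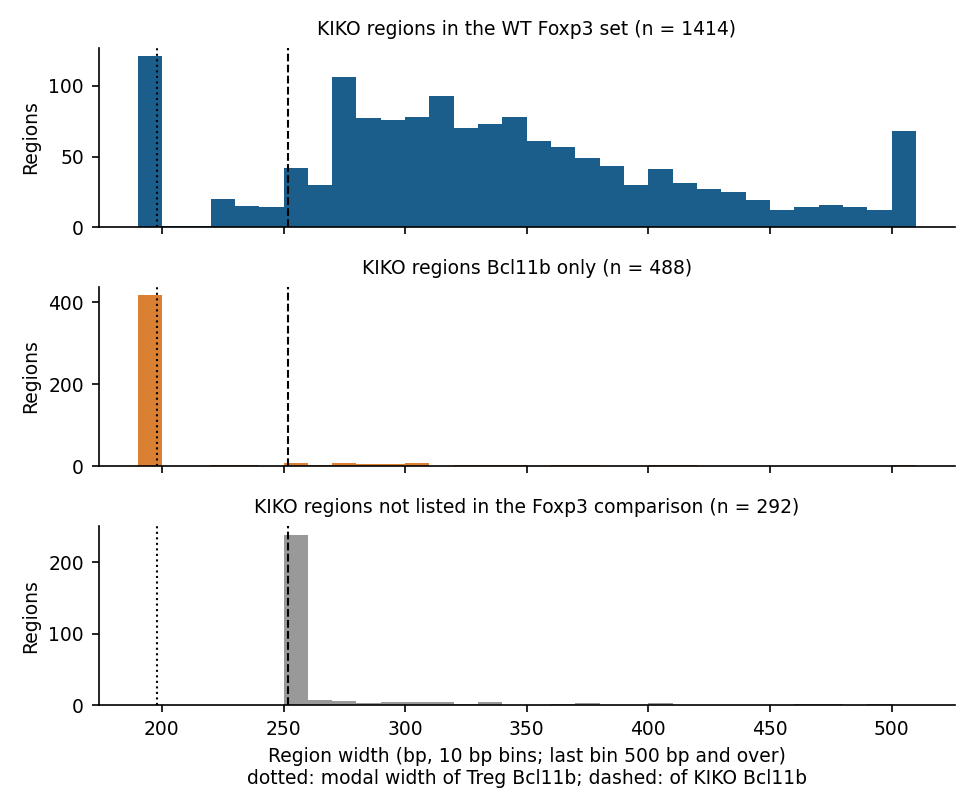
Widths of the 2194 KIKO regions (bp, 10 bp bins) in the WT Foxp3 set, listed for Bcl11b only, and not listed in the Foxp3 comparison; the last bin takes all widths of 500 bp and over. Bcl11b-only regions mostly sit at the 198 bp of Treg Bcl11b (dotted line) and unlisted ones at the 252 bp of KIKO Bcl11b (dashed line). Regions in the Foxp3 set mostly spread above both, but 121 of them sit at 198 bp.

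Kept regions were more often Foxp3 regions than lost ones, but not among wide regions. Background is that 37.7% of the WT side of the KIKO comparison was kept. Of kept regions placed in the Foxp3 comparison, 1412 of 1900 (74.3%, 72.3 to 76.2) were Foxp3 regions, against 1500 of 3509 (42.7%, 41.1 to 44.4) of lost regions, an odds ratio of 3.87 (3.42 to 4.39). Placement left out 227 of 2127 kept regions but only 10 of 3519 lost ones. Regions shared by Bcl11b and Foxp3 that the KIKO comparison did not list enter neither these shares nor the background. Over the full lists the shares were 66.4% and 42.6%. The 1412 include 108 regions, and the 1500 include 58, that the Foxp3 comparison listed for Foxp3 only. Near gene ends the shares were 92.8% and 74.4%, and away from them 53.3% and 29.4%. Among regions of at least 252 bp they were 95.2% and 94.0%, an odds ratio of 1.26 (0.878 to 1.82), and above 276 bp they were 96.0% and 94.7%. Both comparisons use the WT Treg Bcl11b libraries, so a call made only there would count as lost and as lacking Foxp3 alike, and no p is given.

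**Figure D3:**
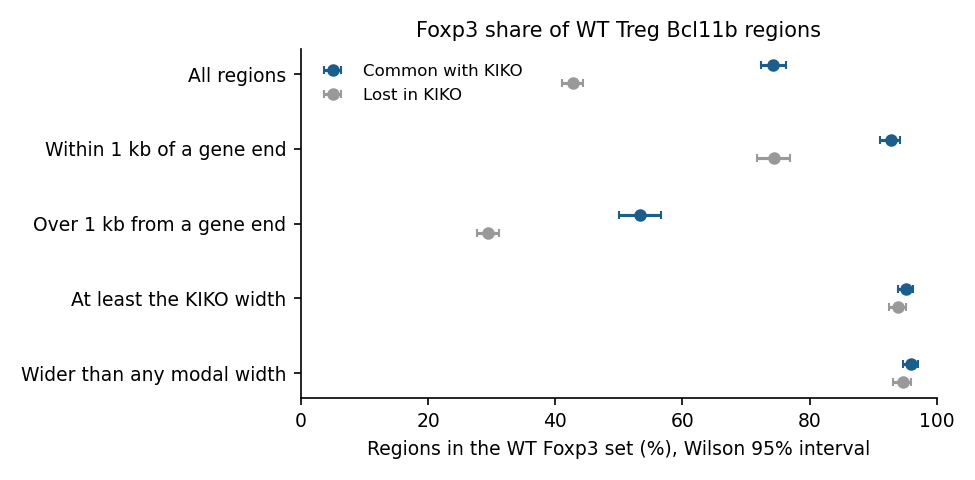
Share (%) of regions in the WT Foxp3 set, kept (blue) or lost (grey) in KIKO, over all regions placed in the Foxp3 comparison and within subsets by distance and width. Bars are Wilson 95% intervals. The points lie apart over all placed regions (74.3% and 42.7%) and together at 95.2% and 94.0% among those of at least 252 bp.

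KIKO regions that were Foxp3 regions lay at gene ends, and those that were not lay farther away. Centres of 939 of the 1414 (66.4%, 63.9 to 68.8) fell at most 1 kb from where a protein-coding gene begins or ends, against 140 of the 780 others (17.9%, 15.4 to 20.8). The background was 37.9% of all regions and 46.2% of the WT Foxp3 set. The odds ratio was 9.03 (7.27 to 11.3, Fisher's exact test, two-sided, adjusted p = 1.1e-110), and the median distance to a gene end was 182 bp against 6124 bp. The p compares regions of these lists, not conditions. Bcl11b-only members (15.0%), unlisted members (22.9%) and KIKO-specific regions (10.4%) all lay below the background. Above 276 bp the difference was not detected, at 70.2% of 1083 and 59.8% of 87 regions (odds ratio 1.58, 0.981 to 2.53, Fisher's exact adjusted p = 0.1).

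Strand was known for annotated start sites, which cover all chromosomes but 18. Of 1384 KIKO regions in the Foxp3 set, 827 (59.8%, 57.1 to 62.3) were centred within 1 kb of a start, against 109 of 759 (14.4%, 12 to 17) of those outside it. The share was 50.2% for lost Foxp3 regions, 39.7% for Foxp3 regions outside the KIKO comparison and 34.5% for all regions. Among the 827, the median centre lay 22 bp upstream of the start (quartiles -91 and 39 bp).

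**Figure D4:**
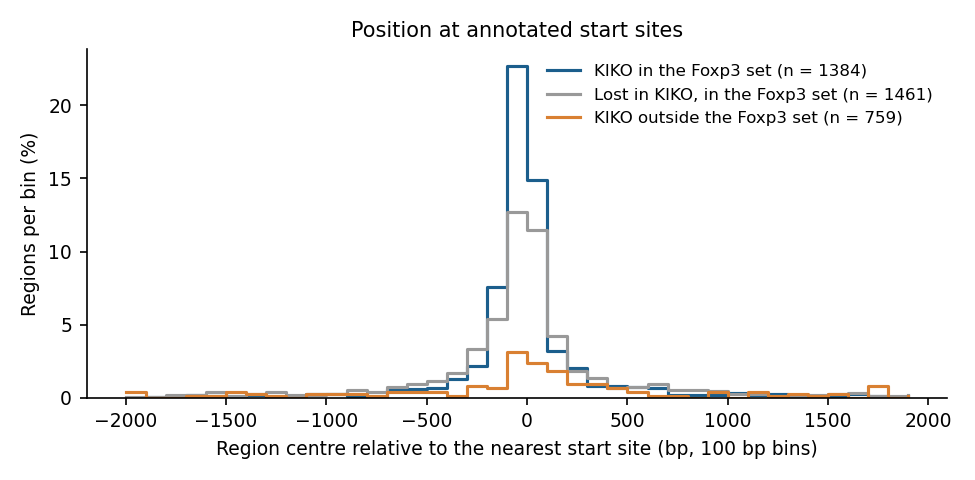
Distance (bp, 100 bp bins; negative is upstream) from region centres to the nearest annotated start site, as the share (%) of each set's regions in each bin. KIKO regions in the Foxp3 set (blue) peak just upstream of the start, lost Foxp3 regions (grey) have a lower peak there, and KIKO regions outside the Foxp3 set (orange) a small one.

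The promoters under these regions often held an ETS motif. ETS factors are a large family that binds GGAA cores and includes Ets1, Elf and Gabpa proteins of T cells. RefSeq promoter windows, 250 bases before to 50 after a start, were searched on both strands where a region covered at least 150 bases, which gave 631 windows for KIKO regions in the Foxp3 set. The ETS motif stood in 260 of them (41.2%, 37.4 to 45.1). It stood in 38.6% (34.1 to 43.2) of 433 windows of lost Foxp3 regions, in 24.9% (23.2 to 26.7) of 2420 windows of Foxp3 regions outside the KIKO comparison, and in 11.6% of all 21263 windows. The intervals of the first 2 overlap, and both lie above the third. The NF-Y motif ran the other way, in 30.9%, 32.1% and 45.0% of those sets and 38.2% of all windows. GC boxes stood in 62.6%, 67.9% and 70.1%, against 46.2% of all windows, and the CRE motif (TGACGTC) in 9.19%, 6.00% and 8.68%, against 3.84%. The forkhead motif stood in 2.54% (1.57 to 4.08) of the 631 windows and 3.01% of all windows, and the Runx motif in 3.65% and 4.71%. AP-1 (TGANTCA) stood in 4.28% against 6.99% of all windows, STAT (TTC, any 3 bases, GAA) in 6.66% against 7.69%, the E-box in 9.98% against 15.6%, and the BCL11A element (TGACCA) in 9.83% against 12.5%. A further 45 windows were covered by KIKO regions outside the Foxp3 set, of which 16 (35.6%, 23.2 to 50.2) held the ETS motif and none the forkhead motif. The 631 windows had a median of 23 CpG dinucleotides, against 13 in all windows. The median was alike in the other covered windows, at 25 for lost Foxp3 regions. It was 23 for Foxp3 regions outside the KIKO comparison and 23 for all regions. A match describes letters and is not a bound site. No motif listed here contains another.

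**Figure D5:**
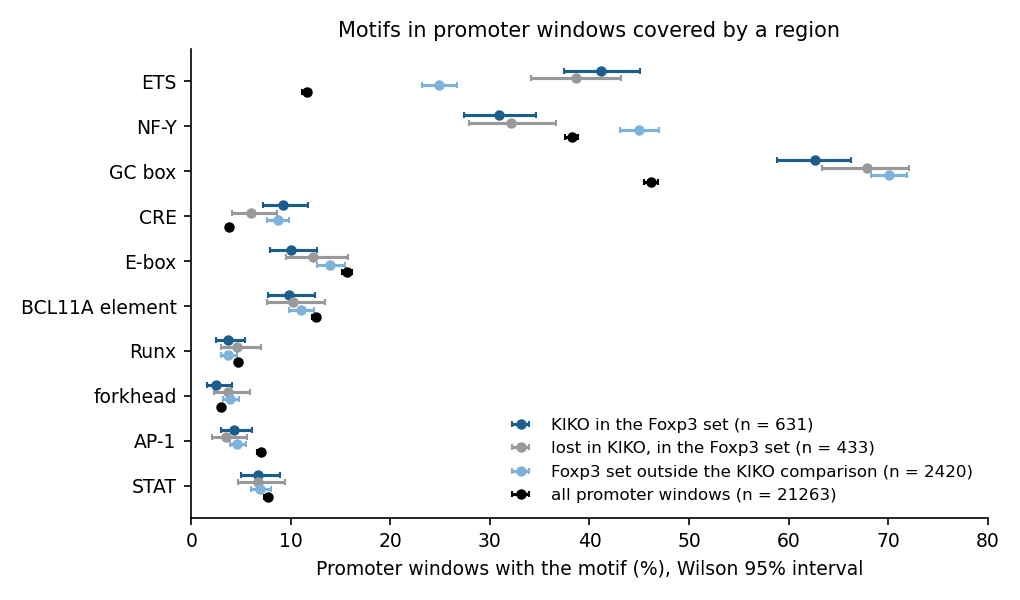
Share (%) of RefSeq promoter windows that hold each motif on either strand, for windows covered by the named region sets and for all windows; bars are Wilson 95% intervals. The ETS motif stands at 41.2% under KIKO regions in the Foxp3 set against 24.9% under Foxp3 regions outside the KIKO comparison, and the NF-Y motif at 30.9% against 45.0%.

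KIKO regions in the Foxp3 set were mostly listed for Bcl11b in Tn cells too. Of the 1414, 1279 (90.5%, 88.8 to 91.9) were common with Tn or Tn-specific, against 330 of the 780 others (42.3%, 38.9 to 45.8) and 56% of all Bcl11b regions. In detail, 1253 were common with Tn, 61 were Treg-specific, 26 were Tn-specific and 74 were not listed there. Of the 488 Bcl11b-only members, 57.6% were listed for Tn, and of the 292 unlisted ones 16.8%. The Tn and KIKO comparisons share the WT Treg Bcl11b libraries, so these shares stand without a test. Above 276 bp the shares were closer, at 91.3% of 1083 regions and 79.3% of 87 (odds ratio 2.74 against 12.9 over all widths).

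Foxp3 was listed as kept at most of these regions in Treg cells without Bcl11b. Of the 1414, the comparison of WT with Bcl11b-KO Treg listed 877 as kept without Bcl11b, 299 as lost, 31 as specific to Bcl11b-KO cells and 7 in more than 1 class, and did not list 200. Among those on its WT side, 74.6% (72.0 to 77.0) were kept, against a background of 68.7% of that side. Foxp3 regions whose Bcl11b was lost in KIKO cells were kept in 72.5% (807 of 1113), and the difference was not detected (odds ratio 1.11, 0.919 to 1.35, Fisher's exact test, two-sided, adjusted p = 0.28). The KIKO and Bcl11b-KO comparisons share no immunoprecipitated libraries, but may share WT Treg inputs, and the regions tested were selected by the WT Foxp3 libraries. Foxp3 regions outside the KIKO comparison were kept in 62.2% (6904 of 11095, odds ratio 1.78, 1.55 to 2.05). These include regions listed as shared with Bcl11b in WT Treg cells. A call made only in the WT Foxp3 libraries would fall among them and count as lost, so no p is given. The direction of this difference turned among regions of at least 252 bp, with 75.1% of KIKO regions against 82.9% (odds ratio 0.621). Of all members, 729 (33.2%) were listed in all 5 sets, that is for Bcl11b in Treg, KIKO and Tn cells and for Foxp3 with and without Bcl11b.

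At the genes of 13 lists, grouped by role, 32 of 165 genes had a KIKO region, beside 2042 of all 21887 protein-coding genes. The 32 genes had 36 KIKO regions. Of these, 33 (91.7%, 78.2 to 97.1) were in the Foxp3 set, beside 64.4% of all members. Lost regions at list genes also exceeded their background, with 61 of 86 in the Foxp3 set beside 42.6% of all lost regions. A Foxp3 region was listed at 133 of the 165 genes, beside 8510 of the 21887 protein-coding genes. Kept regions were 29.5% (22.1 to 38.1) of the WT Bcl11b regions at list genes, beside 37.6% over all protein-coding genes. The Treg signature list had 2 kept and 17 lost regions (10.5% kept, 2.94 to 31.4). No region of Foxp3, of Il2ra, the IL-2 receptor alpha chain gene, of Ctla4, an inhibitory receptor gene, or of Ikzf2, Ikzf4 and Satb1, genes of Treg transcription factors and a chromatin organiser, was listed for KIKO Bcl11b. At Ikzf2 none was listed as lost either, since its 6 regions all lie outside the KIKO comparison. The 2 kept ones lay near Tnfrsf9, a costimulatory receptor gene, at chr4:150915086-150915597, and in Itgae, the integrin alpha E gene, at chr11:73138234-73138509. The centre of the latter lies 77 bp upstream of the start site of Haspin, a mitotic kinase gene inside Itgae whose promoter is printed above, so its assignment is uncertain.

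Genes of T cell receptor signalling had 7 kept regions, all in the Foxp3 set, and 16 lost. Nr4a1, an immediate early nuclear receptor gene induced by that receptor, had 2 kept regions. That at chr15:101258410-101258734 was listed as keeping Foxp3 without Bcl11b. That at an annotated start inside the gene, chr15:101266396-101266934, was listed as losing it. Another Nr4a1 region in the Foxp3 set, chr15:101253857-101254147, centred 100 bp from a gene end, was lost in KIKO. The kinase gene Zap70, the adaptor gene Lcp2, the phospholipase gene Plcg1 and the exchange factor gene Vav1 had 1 kept region each. All of these kept Foxp3 without Bcl11b. The Cd3e region, 198 bp wide, was centred 295 bp from the gene of this receptor subunit.

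Homing genes had 6 kept and 6 lost regions, and all 6 kept ones were in the Foxp3 set. They lay at Cxcr5, a follicular chemokine receptor gene (2 regions), at Ccr9, a gut-homing receptor gene, at Selplg, the P-selectin ligand gene, and at the integrin genes Itga4 and Itgal. The kept Selplg region lost Foxp3 without Bcl11b, while most other Foxp3 regions at Selplg kept it. One of the Cxcr5 regions, at chr9:44537802-44538140, was listed as specific to Bcl11b-KO in the other Foxp3 comparison, against its WT Foxp3 listing here. Of the IL-2 and STAT5 list, the kept regions at Il2rb, the receptor beta chain gene, Stat5a and Stat5b were in the Foxp3 set, while that of Socs3, a cytokine signalling inhibitor gene, was not listed in the Foxp3 comparison.

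Of the naive and T lineage list, 5 regions were kept and 18 lost. Bcl11b itself had a kept region in the Foxp3 set at chr12:107993095-107993393, which the comparison with Tn gave to Tn alone, so the lists conflict there. Runx1, Runx3 and Tox had 1 each in the Foxp3 set, and S1pr1, a receptor gene for egress from lymph nodes, had 1 of 198 bp listed for Bcl11b only. The kept Runx3 region was listed as specific to Bcl11b-KO Foxp3 in the other Foxp3 comparison, so the lists conflict there too. The kept Tox region lost Foxp3 without Bcl11b. The suppressive and inhibitory list had 3 kept regions, at Il10, an anti-inflammatory cytokine gene, Nt5e, the CD73 ectoenzyme gene, and Pdcd1, the PD-1 gene. The Il10 region, at chr1:131025849-131026132, was Treg-specific against Tn and specific to Bcl11b-KO in the other Foxp3 comparison, although the comparison with Bcl11b listed it for WT Foxp3. Lfng, a glycosyltransferase gene that modifies Notch receptors, had 3 kept regions, 2 in the Foxp3 set. The T helper list gave Bcl6 and Maf, and the housekeeping list regions at genes that include Rplp0 and Tbp, all in the Foxp3 set. Of the marker lists of other cells, the myeloid list had 1 region, at Spi1, and the B cell and the CD8 and NK lists had none.

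Over all genes, 1356 had a KIKO region in the Foxp3 set, 741 had one outside it, and 55 had both. The most of the first kind at a gene was 2, at 54 genes, which include Adnp, Akna, B4galt5, C87436, Ccdc71l and Cilk1. Both regions of Adnp, a homeobox gene, kept Foxp3 without Bcl11b. Irf1, an interferon-response factor gene, Nfkbie, an NF-kappa-B inhibitor gene, and Rara, a retinoic acid receptor gene, were among the 54 and were chosen after their values were seen. Both Nfkbie regions and both Rara regions were kept in KIKO cells and kept Foxp3 without Bcl11b.

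The 780 regions outside the Foxp3 set mostly lay over 10 kb from a Foxp3 region. The nearest Foxp3 region was a median of 22.2 kb away, within 1 kb for 52 (6.67%) and within 10 kb for 228 (29.2%). A gene with a Foxp3 region elsewhere was nearest to 358 (45.9%). Among Bcl11b-only regions this share was 55.5% (51.1 to 59.9) of kept and 57.0% of lost ones. The median distance to a Foxp3 region was 16.1 kb for kept Bcl11b-only regions, against 15.2 kb for lost Bcl11b-only regions. In the other Foxp3 comparison, 45 of the 780 (5.77%, 4.34 to 7.63) were listed for Foxp3 in Bcl11b-KO cells, 30 as common with WT and 15 as specific to Bcl11b-KO, beside 908 of the 1414 members in the Foxp3 set (64.2%). The share of those outside was 46.0% (40 of 87) above 276 bp and 18.6% (26 of 140) within 1 kb of a gene end. At most 2 of these regions shared a gene, at 13 genes that begin with Calcr, Elf2, Erbb3, Immp1l, Mipol1 and Ncapg2. The regions at Elf2, an ETS factor gene, Immp1l, Mipol1 and Ncapg2 all had 198 bp, those at Calcr, the calcitonin receptor gene, had 252 bp, and those at Erbb3, a receptor kinase gene, had 198 and 287 bp.

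The 67 KIKO-specific regions had a lower Foxp3 share than the kept ones. The kept list names WT Treg Bcl11b and the KIKO-specific list does not. None of the 67 was listed as shared by Bcl11b and Foxp3, so the difference follows in part from how the lists were made. Of the 67, 2 were Foxp3 regions (2.99%, 0.822 to 10.2), and 62 were listed in no other comparison, which follows in part from the same. The 2 were at Mre11a, a DNA repair nuclease gene, at chr9:14784711-14785113, which was Tn-specific and kept Foxp3 without Bcl11b, and at Gm7247, at chr14:51415978-51416259, which lost it. The others lay a median of 97.6 kb from a Foxp3 region, among them regions at Cerkl, Cenpw, Apbb2 and Aasdhppt. Sharpin, a ubiquitin ligase subunit gene, and Tmem170, whose region is centred 107 bp from the gene, were chosen after their values were seen.

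Olfactory, vomeronasal, taste and trace amine receptor genes, which are usually silent in T cells, were the nearest gene for a larger share of members outside the Foxp3 set than inside it, a class chosen after the values were seen. They were nearest, within 100 kb, to 13 of the 67 KIKO-specific regions (19.4%, 11.7 to 30.4), to 29 of 227 kept and unlisted regions (12.8%) and to 30 of 488 Bcl11b-only regions (6.15%). Kept regions in the Foxp3 set had 5 of 1412 (0.354%). Lost regions showed the same order, with 3.33% (67 of 2009) of those listed for Bcl11b only and 0.4% (6 of 1500) of those in the Foxp3 set, and the share over all regions was 1.24%. These genes are 6.91% of protein-coding genes and include many near-identical copies, so the position of a region at them is uncertain.

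By chromosome, the Foxp3 share of members ran from 50.4% (57 of 113) on chromosome 3 to 77.3% (143 of 185) on chromosome 11 among the 19 autosomes. The X chromosome held 9 members (0.41%), 8 of them in the Foxp3 set, beside 0.824% of lost regions and 1.83% of all regions.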

How the data were processed

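ChIP-seq regions were read from the 12 lists the authors deposited, each with chromosome, start and end and no header, so the deposited values are positions with no unit of signal. HISAT2 2.1.0, HOMER 4.10.1, SAMtools 1.3, deepTools, cutadapt 1.12, Trim Galore 0.4.2, FastQC and the build mm10 are named per the submitters' processing notes; what each did, the peak threshold and any pooling of replicates are not stated there. The labels of the third Treg Bcl11b replicate name no list, and those of the second WT Foxp3 replicate omit the list shared by both factors. Files hold no replicate values, so depth is unknown, and p-values compare regions within these lists and may be too small, since neighbouring regions are not independent.

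Starts are given counted from 1. After 127 repeated rows were dropped, 22081 regions were left, none overlapping another, and those in 2 classes of a comparison (4 for KIKO, 4 for Tn, 17 for Bcl11b-KO) were left out of it. Regions went to the nearest of 21887 protein-coding genes of a RefSeq table (GRCm38.p6) within 100 kb of the region's centre, which placed 99.0%. The table has no strand, so start sites came from 21263 RefSeq promoter windows, which lack chromosome 18; 51 members lie there. Shares have Wilson 95% intervals. Fisher's exact tests were two-sided, with conditional odds ratios, exact 95% intervals and Benjamini-Hochberg adjustment over 6 tests. The tests of kept against lost regions by Foxp3 share, of Tn share, of Foxp3 regions outside the KIKO comparison and of width are given without p. The test of Foxp3 kept without Bcl11b against lost regions has a p. Its regions and its outcome both rest on the WT Foxp3 libraries. Motifs were planned for region sequences, but no genome was given, so promoter windows were searched.

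The members, lists and tests were chosen with earlier results of these data known. Named were Foxp3, Il2ra, Ctla4, Ikzf2, Ikzf4, Il10, Bcl11b and Satb1, the 8 genes with the most members in the Foxp3 set and the 6 with the most outside it (ties by symbol), genes of KIKO-specific regions in the Foxp3 set and the first 5 by symbol of the others, and list genes with a member; a few of the genes so named are not reported here. Promoters were printed for some list genes and KIKO-specific regions that reach a window; the Runx3 and Ankrd49 stretches are shorter than the 150 bases asked for in the motif search. Alternatives covered matching, width, gene ends, chromosomes and the source of each set. The steps were tested on simulated data. Software was scipy 1.17.1, pandas 2.3.3, numpy 2.4.6 and matplotlib 3.10.9 under Python 3.11.15.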

Additional observations from a re-analysis of the deposited data

How the results depend on the processing

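Since no regions overlap, matching by overlap or by centres within 100 bp could not differ from identity and shows nothing about stability. Under the other 11 settings, 52 of 73 values kept their direction and side of the threshold, or for a share stayed within its interval. The Foxp3 share of KIKO regions moved to 77.3% without widths modal for another set, 92.6% above 276 bp, 77.8% at 252 bp and over, 42.6% over 1 kb from a gene end, 87.0% within it, 74.3% among regions placed in the Foxp3 comparison and 55.0% with the Foxp3 set of the Bcl11b-KO comparison. The Bcl11b-KO Foxp3 share of regions outside the WT Foxp3 set moved, in the order of the first 6, to 11.2%, 46.0%, 12.7%, 2.97%, 18.6% and 4.1%. The odds ratio of kept against lost regions fell to 1.23, 1.34 and 1.26 under the 3 width settings, and that of gene ends to 1.58 above 276 bp. The odds ratio of Foxp3 kept without Bcl11b against regions outside the KIKO comparison reversed to 0.626, 0.658 and 0.621 under those 3, and that against lost regions reversed to 0.999 at 252 bp and over. The cause was not tested. The settings of at least 252 bp, of regions within 1 kb of a gene end and of placed regions were chosen after seeing the data. Assignment within 20 kb left 36 members at list genes. The planned motif window of 100 bases was not run, as no genome was given. No paired analysis was possible because the lists carry no replicate values, and for the same reason no replicate could be left out. How well each immunoprecipitation worked, and the depth, limit every count of lost regions and are unknown.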
